A study of Homo sapiens with 6 samples.

Results

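Rab GTPases are small membrane-bound GTPases, the largest branch of the Ras superfamily, and each is tied to particular membranes on the routes between the endoplasmic reticulum, the Golgi, endosomes, lysosomes and the cell surface. The 63 genes described here are the protein-coding genes in the table whose symbol is RAB followed by a number and at most 1 letter, together with RABL2A, RABL2B, RABL3 and RAB40AL. They were 63 of 21776 genes in the table, of which 15717 were protein-coding. The rule itself uses symbols and no expression values, but the family was picked out with earlier results of these data known.

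RNA sequencing measured the transcripts of a human oral squamous cell carcinoma line under hypoxic and normoxic conditions, in 3 libraries each. SCC25, wild type, is the line that the labels give, whereas a figure legend of the study names SCC9 for its transcriptomic enrichment result, and both are established lines from oral carcinoma. The hypoxic cells were kept for 12 h at 1% O2 and the normoxic cells for 12 h in air, both with added CO2 and in DMEM/F12 medium with fetal bovine serum and antibiotics. Reads counted on genes totalled 37278703, 29637189 and 29981208 in the normoxia libraries, and 30186813, 36076088 and 32272716 in the hypoxia libraries, each set in the order of its replicate numbers, which is kept throughout. Nothing states whether the replicates came from separate cultures, so the p-values measure only the spread between these libraries, and each condition is a single line at a single time. The squamous epithelial genes KRT5, KRT17, TP63, DSG3, CDH1 and SFN were detected in all 6 libraries, with CDH1 at 180.3 to 482 CPM (counts scaled to a common library total). KRT14, a keratin of basal squamous cells, had 1 count in normoxia replicate 2 and 0 in the other libraries. All 6 hypoxia response genes examined (NDRG1, VEGFA, CA9, PDK1, BNIP3 and SLC2A1) were higher under hypoxia, with log2-fold changes from 1.49 for SLC2A1 to 5.40 for NDRG1. In all 6, normoxia replicate 3 was the highest normoxia library, though below every hypoxia library. NDRG1 had 163, 140 and 409 CPM and CA9 32.2, 27.3 and 67.7 CPM under normoxia. The cause was not tested.

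A Rab cycles between a GDP-bound form held in the cytosol by a chaperone and a GTP-bound form on a membrane, where it recruits effectors such as tethers, motors and adaptors. Guanine nucleotide exchange factors (GEFs) switch a Rab on, GTPase-activating proteins (GAPs) switch it off, and a prenyl group added by Rab geranylgeranyl transferase anchors it. In epithelial cells Rabs carry newly made and recycled proteins to the cell surface, which is the membrane traffic that the study was concerned with.

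Of the 63 Rab genes, 56 passed edgeR's filter on low counts. Under hypoxia 22 were upregulated and 19 downregulated at an adjusted p-value under 0.05 by edgeR's quasi-likelihood test, and 15 were not called. The 41 called genes were 73.2% of the Rabs tested, beside 77.8% of all 14255 genes tested. The 22 upregulated Rabs were 39.3% of those tested (39.2% of all genes) and the 19 downregulated Rabs 33.9% (38.5% of all genes). In 44 Rabs, or 78.6%, the 3 hypoxia libraries did not overlap the 3 normoxia libraries in CPM, beside 80.5% of all genes. These shares lay near the background of a line in which most genes differed. Log2-fold changes beyond 1 in size were found in 10 called Rabs, or 17.9%, beside 30.4% of all genes, with 8 upregulated (14.3%, beside 19.9%) and 2 downregulated (3.57%, beside 10.5%). The median log2-fold change was 0.02 both for the Rabs and for all genes tested, and the median size was 0.37 for the Rabs and 0.63 for all genes. In bulk RNA, fewer cells with a transcript and less of it per cell cannot be told apart, and the amounts of Rab protein on membranes were not measured.

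**Figure D1:**
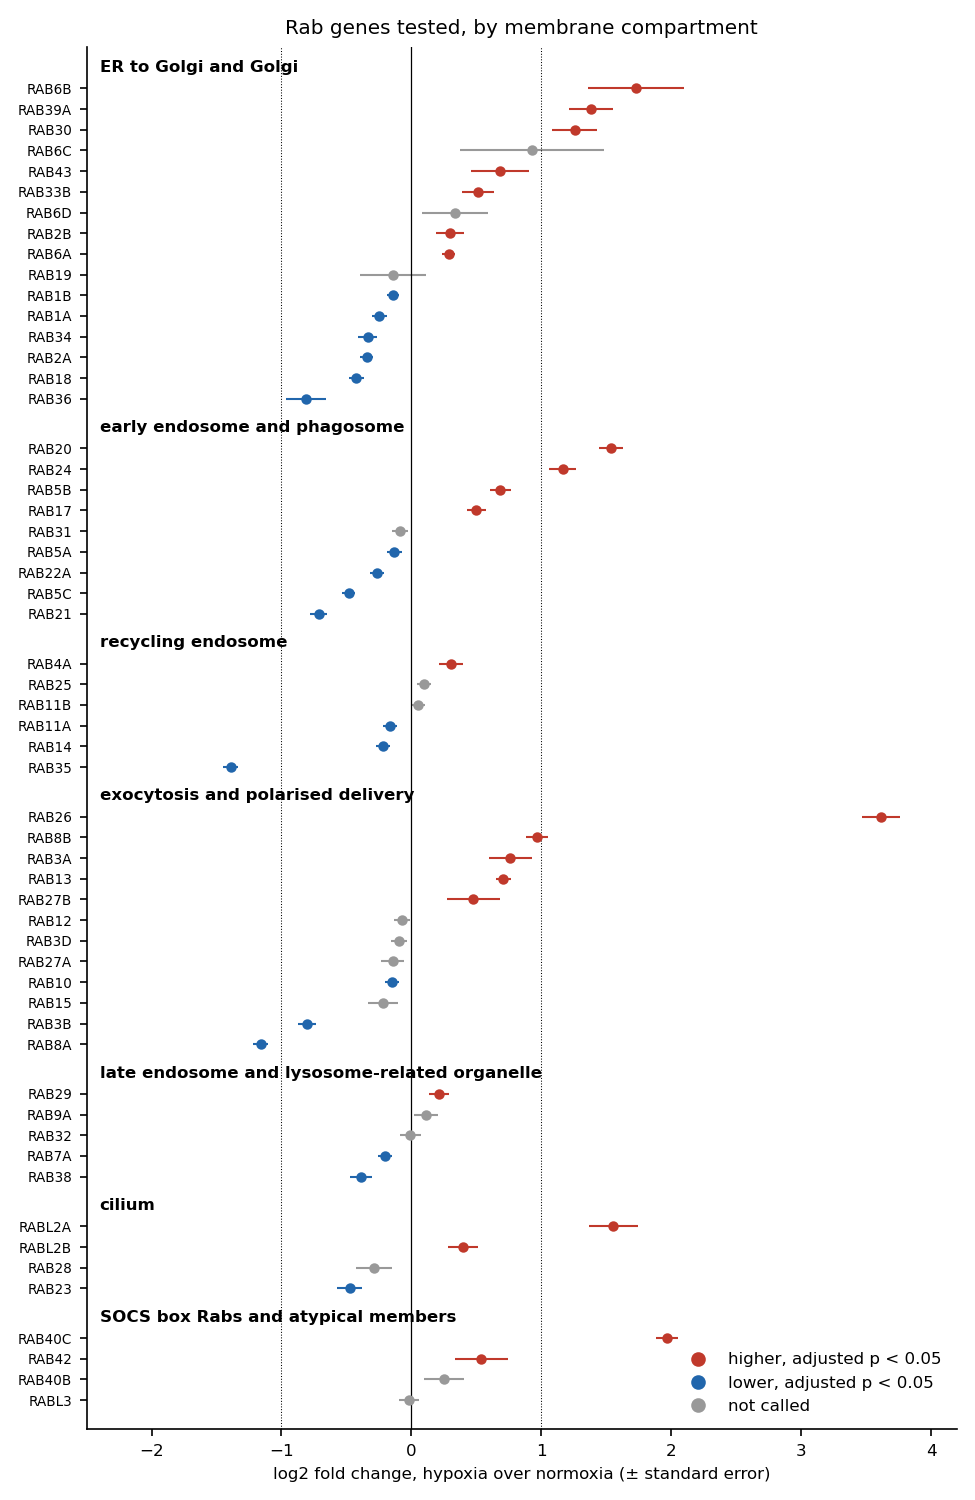
Log2-fold change (hypoxia over normoxia, x axis) of the 56 Rab genes tested, each placed in 1 group by an assigned membrane role, although some act on several membranes. Points are edgeR estimates and bars standard errors derived from the F statistic of its test. Of the genes, 22 are red (higher), 19 blue (lower) and 15 grey (not called), and dotted lines mark a change of 1.

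The largest increase among the Rabs was that of RAB26 (Entrez 25837), a Rab of secretory granules and vesicles. It had 2.04, 1.36 and 1.52 CPM in the normoxia libraries and 22.3, 20.2 and 18.9 CPM in the hypoxia libraries. Each hypoxia library was thus far above each normoxia library, and the log2-fold change was 3.61 ± 0.15 (SE, n = 3 per condition), a 12.2-fold rise (edgeR adjusted p = 7.63e-13). RAB26 moved from rank 49 to rank 30 among the 63 Rabs by mean FPKM (fragments per kilobase of gene, scaled to the library total), the scale used here wherever levels of different genes are compared.

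RAB40C (Entrez 57799) carries a SOCS box, through which it joins a cullin-RING ubiquitin ligase. Its values were 22.7, 23.0 and 28.4 CPM under normoxia and 87.1, 100.5 and 101 CPM under hypoxia, with no overlap. The log2-fold change of 1.97 ± 0.08 (edgeR adjusted p = 1.3e-12) took it from 8.11 ± 1.08 to 32.7 ± 2.83 FPKM (SD, n = 3), from rank 23 to rank 10. It was the most abundant of the strongly upregulated Rabs.

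RAB20 (Entrez 55647) is a Rab of early endosomes and phagosomes known as a target of the hypoxia-inducible factor HIF1. It had 12.3, 10.9 and 10.0 CPM under normoxia and 31.3, 34.01 and 31.1 CPM under hypoxia. The conditions did not overlap, and the log2-fold change was 1.53 ± 0.09 (edgeR adjusted p = 8.18e-11). RAB24 (Entrez 53917), an unusual Rab with weak GTPase activity that has been linked to autophagy, had 9.97, 8.77 and 11.4 CPM under normoxia and 21.4, 23.7 and 22.4 CPM under hypoxia. Its log2-fold change was 1.16 ± 0.10 (edgeR adjusted p = 1.53e-08). Of the 75-base windows in RAB24 transcripts, 57.6% also occur in transcripts of the neighbouring gene MXD3, whose log2-fold change was -0.56, opposite in sign to that of RAB24.

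The other Rabs upregulated beyond a log2-fold change of 1 all rose from low levels. RAB39A (Entrez 54734), found on the Golgi and on phagosomes, had 2.69, 2.48 and 2.67 CPM under normoxia and 5.83, 7.66 and 6.97 CPM under hypoxia, a log2-fold change of 1.38 ± 0.17. RAB30 (Entrez 27314), a Golgi Rab, had 2.71, 2.52 and 2.13 CPM against 5.67, 5.65 and 6.38 CPM, a log2-fold change of 1.26 ± 0.17. Neither gene's conditions overlapped. RAB6B (Entrez 51560), the neuronal relative of RAB6A in Golgi traffic, had 0.618, 0.280 and 0.777 CPM under normoxia and 2.13, 2.15 and 1.33 CPM under hypoxia. Its log2-fold change of 1.73 carried the largest standard error of the called Rabs, 0.37 (edgeR adjusted p = 0.000394). In RAB6B, 5.67% of windows are shared with SRPRB, whose log2-fold change was -1.92.

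RABL2A (Entrez 11159) and RABL2B are near-identical genes whose products act in traffic into cilia. RABL2A had 1.72, 1.75 and 1.72 CPM under normoxia and 4.49, 5.65 and 5.12 CPM under hypoxia, a log2-fold change of 1.56 ± 0.19. RABL2B, the more abundant copy, had 12.9, 9.86 and 12.9 CPM against 14.7, 17.1 and 15.1 CPM, a log2-fold change of 0.40 ± 0.12. The share of RABL2A windows also found in RABL2B was 56.7%, so reads could be split between the copies in a way that the count table does not show. With the counts of both copies summed, a check added after the data had been seen, the log2-fold change was 0.61 (edgeR adjusted p = 5.41e-05).

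**Figure D2:**
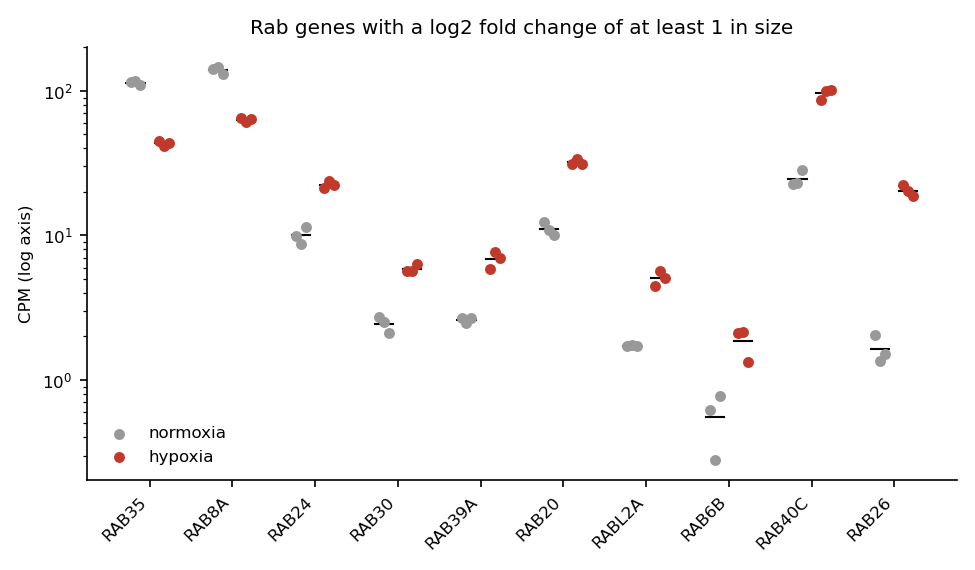
CPM (log axis) in each normoxia (grey) and hypoxia (red) library of the 10 Rab genes called with a log2-fold change beyond 1 in size; black lines are means of 3 libraries. RAB35 and RAB8A sit lower under hypoxia and the other 8 genes higher, without overlap between the conditions.

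Only RAB35 and RAB8A fell beyond a log2-fold change of 1 among the tested Rabs. RAB35 (Entrez 11021) returns endocytosed cargo from endosomes to the plasma membrane and acts in cytokinesis. It had 115, 116 and 109.6 CPM under normoxia and 45.1, 41.5 and 43.6 CPM under hypoxia, a log2-fold change of -1.39 ± 0.06 (edgeR adjusted p = 7.71e-13). On the FPKM scale RAB35 fell from 31.3 ± 0.99 to 12.3 ± 0.40 (SD, n = 3), from rank 12 to rank 22. RAB8A (Entrez 4218), which carries vesicles from the Golgi and recycling endosomes to the cell surface and to cilia, had 142, 147 and 132 CPM under normoxia and 64.5, 60.7 and 63.5 CPM under hypoxia. Its log2-fold change was -1.16 ± 0.06 (edgeR adjusted p = 7.81e-12). Both genes were abundant under normoxia, and the hypoxia libraries of each lay close together and far below the normoxia libraries. Of RAB8A windows, 36.5% also occur in other annotated genes. The same held for at least 5% of windows in 20 of the 63 Rabs, among them RAB13 (37.1%), RAB5C (33.95%) and RAB1B (26.7%), and whether reads were assigned by strand is not given.

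The core of the hypoxia response element, to which hypoxia-inducible factors bind, was searched for before the start sites of the Rabs as the letters ACGTG or GCGTG on either strand (CACGT or CACGC on the other). RefSeq promoter windows (GRCh38.p14, 250 bases before to 50 after a start) were matched by symbol for 51 of the 63 Rabs. Of all 35116 windows in that table, 48.4% hold a match, beside 52.1% of the windows of Rabs (38 of 73). Counting a gene as matched when any of its windows holds the letters, the share was 73.7% of the upregulated Rabs (14 of 19), 66.7% of the downregulated Rabs (10 of 15) and 30.8% of the Rabs not called (4 of 13), beside 69.0% of all tested genes. Among all tested genes the share was 66.2% of those higher and 72.8% of those lower under hypoxia. Of the Rabs upregulated beyond 1, 5 of 6 with a window held a match, RAB30 being the exception, and RAB26 and RAB20 were not among the 51. Over all 51 Rabs, also those not tested, the share was 56.9%. A gene with more windows has more chances of a match, so these gene shares are not shares of windows. The 250 bases before a start are shown for 4 strongly upregulated Rabs and for both strongly downregulated ones, 5′ to 3′ along the gene, with matches in capitals. RAB24, RAB39A and RAB40C were chosen after the search because they held the most matches, and RAB30 because it held none. RAB24 (chr5:177303720-177303969, minus strand) has 3 matches, a pair of which overlap 29 and 30 bases before the start. RAB39A (chr11:107928198-107928447, plus strand) has 3, RAB40C (chr16:589107-589356, plus strand, 1 of its windows) has 2, RAB30 (chr11:83071898-83072147, minus strand, 1 of its windows) has none, RAB35 (chr12:120116754-120117003, minus strand) has 1, and RAB8A (chr19:16111639-16111888, plus strand) has none.
RAB24: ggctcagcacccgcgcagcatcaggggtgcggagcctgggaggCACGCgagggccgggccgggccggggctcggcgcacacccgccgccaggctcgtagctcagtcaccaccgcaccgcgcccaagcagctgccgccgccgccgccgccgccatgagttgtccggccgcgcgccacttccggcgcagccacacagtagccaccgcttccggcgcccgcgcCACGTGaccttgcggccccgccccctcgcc
RAB39A: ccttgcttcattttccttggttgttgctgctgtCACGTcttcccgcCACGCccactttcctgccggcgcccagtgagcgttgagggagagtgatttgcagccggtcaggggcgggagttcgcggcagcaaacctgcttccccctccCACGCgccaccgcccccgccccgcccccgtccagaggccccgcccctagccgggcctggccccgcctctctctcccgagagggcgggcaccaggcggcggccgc
RAB40C: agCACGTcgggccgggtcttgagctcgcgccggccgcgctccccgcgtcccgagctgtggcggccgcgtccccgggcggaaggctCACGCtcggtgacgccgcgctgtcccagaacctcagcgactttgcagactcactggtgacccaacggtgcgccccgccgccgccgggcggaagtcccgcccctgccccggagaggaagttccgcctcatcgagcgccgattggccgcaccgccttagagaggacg
RAB30: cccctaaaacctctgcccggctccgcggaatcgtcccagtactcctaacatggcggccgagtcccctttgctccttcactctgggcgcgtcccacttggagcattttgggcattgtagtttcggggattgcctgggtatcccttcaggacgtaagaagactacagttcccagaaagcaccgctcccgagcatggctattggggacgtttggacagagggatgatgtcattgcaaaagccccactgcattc
RAB35: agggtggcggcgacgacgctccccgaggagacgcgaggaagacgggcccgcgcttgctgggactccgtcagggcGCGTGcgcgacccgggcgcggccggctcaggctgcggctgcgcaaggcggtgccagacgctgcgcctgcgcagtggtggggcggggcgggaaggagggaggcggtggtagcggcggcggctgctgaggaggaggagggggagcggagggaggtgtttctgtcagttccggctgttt
RAB8A: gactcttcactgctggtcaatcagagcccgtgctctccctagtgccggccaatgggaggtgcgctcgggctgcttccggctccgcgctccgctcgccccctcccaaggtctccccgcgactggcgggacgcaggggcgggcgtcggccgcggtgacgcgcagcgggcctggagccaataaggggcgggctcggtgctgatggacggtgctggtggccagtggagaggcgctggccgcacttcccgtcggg
The letters were thus found before the start of RAB35, a gene that fell, as well as before those of genes that rose. A match of 5 letters is a description of the sequence, and binding of a factor was not measured.

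The 8 most abundant Rabs by mean FPKM held 64.1% ± 0.61 of all Rab FPKM under normoxia and 63.9% ± 0.30 under hypoxia (SD, n = 3). RAB7A, which drives fusion of late endosomes with lysosomes, was first in both conditions, with 219, 217 and 212 FPKM under normoxia and 195, 188 and 198 FPKM under hypoxia (log2-fold change -0.20 ± 0.05). RAB1B, which acts between the endoplasmic reticulum and the Golgi, was next, with 177, 183 and 179.8 FPKM against 169.9, 169.6 and 167 FPKM (-0.14 ± 0.05). Its paralog RAB1A had 67.0, 72.4 and 68.7 FPKM against 62.3, 58.8 and 60.3 FPKM (-0.25 ± 0.06). All 3 genes fell by small amounts, and none of them overlapped between the conditions. The call of RAB1B was lost when every library needed 10 counts (log2-fold change -0.06, edgeR adjusted p = 0.224).

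RAB6A and RAB13 were the abundant Rabs that rose. RAB6A, which returns membrane through the Golgi, had 53.1, 54.5 and 55.6 FPKM under normoxia and 68.4, 69.98 and 67.6 FPKM under hypoxia, a log2-fold change of 0.29 ± 0.05 (edgeR adjusted p = 5.11e-05). RAB13 acts at epithelial tight junctions and in delivery to the cell surface. It had 42.3, 41.7 and 46.8 FPKM against 70.4, 74.9 and 75.3 FPKM, a log2-fold change of 0.71 ± 0.06 (edgeR adjusted p = 5.28e-09), and moved from rank 9 to rank 5. The recycling Rabs RAB25, which is restricted to epithelia, and RAB11B were not called in the fit reported here. RAB25 had 68.4, 66.9 and 68.1 FPKM under normoxia and 72.4, 78.0 and 74.5 FPKM under hypoxia (edgeR adjusted p = 0.1), and RAB11B had 60.9, 57.7 and 63.3 FPKM against 64.8, 66.5 and 63.7 FPKM (edgeR adjusted p = 0.358). The libraries of RAB25 did not overlap, and it was called higher when every library needed 10 counts (log2-fold change 0.18, edgeR adjusted p = 0.00566) and by limma on log2(FPKM + 1) (0.14, adjusted p = 0.0101). RAB11B was called higher in the former fit only (0.13, edgeR adjusted p = 0.028).

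Summed over the 63 Rabs, FPKM came to 1263, 1257 and 1255 in the normoxia libraries and 1228, 1241 and 1237 in the hypoxia libraries, or 1258 ± 3.81 and 1235 ± 6.59 (SD, n = 3). The hypoxia sums were lower in every library, by 23.5 FPKM on average. Without RAB7A the sums were 1043 ± 1.90 under normoxia and 1041 ± 10.6 under hypoxia, and the libraries overlapped. Rabs made up 0.292% to 0.305% of the summed FPKM of all genes in the 6 libraries, and the conditions overlapped on that scale too.

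Split at the median FPKM, the 28 more abundant Rabs (7.32 to 205 FPKM) included 7 upregulated, 14 downregulated and 7 not called, with a median log2-fold change of -0.11. The 28 less abundant Rabs (0.157 to 6.96 FPKM) included 15 upregulated, 5 downregulated and 8 not called, with a median of 0.37. Without a split by level, 39.2% of all genes tested were higher and 38.5% lower. Across the 56 Rabs, Spearman's rho between mean FPKM and log2-fold change was -0.41, and across all genes tested it was -0.37. The points share the same 6 libraries, and genes are not independent replicates. The lean of low-level Rabs toward higher values was also present over the whole transcriptome.

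**Figure D3:**
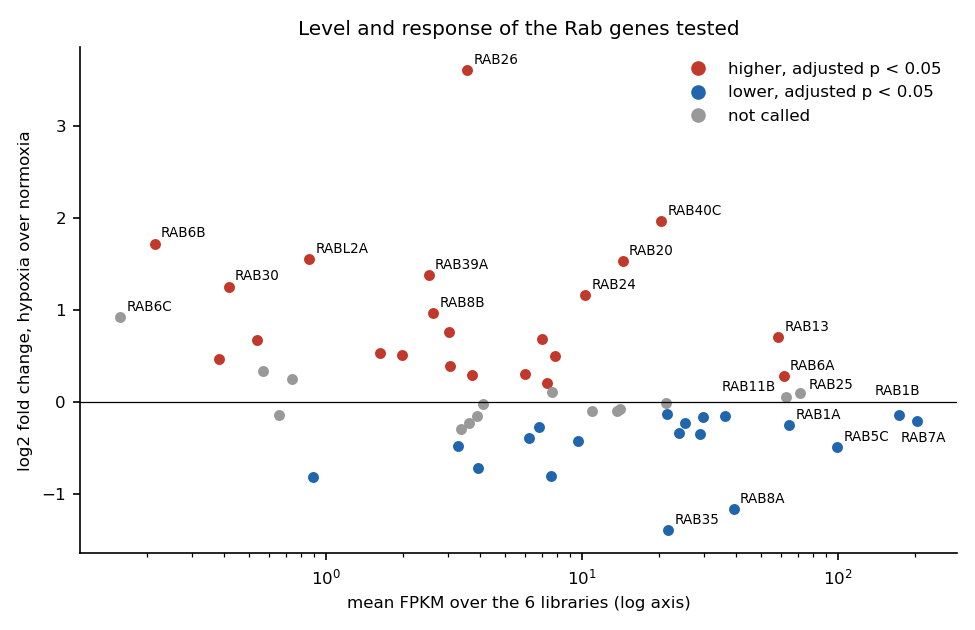
Mean FPKM over the 6 libraries (log x axis) against the log2-fold change (y axis) of the 56 Rab genes tested, coloured by call. Genes with a change of 0.9 or more in size or a mean above 50 FPKM are named; increases beyond 1 lie at or below the level of RAB40C.

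For counts by compartment each Rab was assigned to a single group, although some act on several membranes, so group counts and sums depend on these assignments. The Rabs assigned to the endoplasmic reticulum and Golgi included 7 upregulated and 6 downregulated genes among 16 tested. Over all genes tested, 39.2% were higher and 38.5% lower, and no compartment's counts were tested against these shares. The summed FPKM of the endoplasmic reticulum and Golgi Rabs was 383 ± 4.75 under normoxia and 368 ± 4.18 under hypoxia (SD, n = 3). Besides the genes described above, RAB33B, a Golgi Rab linked to autophagy, rose by 0.51 on the log2 scale, and RAB43 by 0.68, a call lost without normoxia replicate 2 (edgeR adjusted p = 0.0507). The windows of RAB43 are shared at 90.9% with other genes, 88.4% with the read-through gene ISY1-RAB43. RAB18, found on lipid droplets and the endoplasmic reticulum, had a log2-fold change of -0.42, RAB34 one of -0.34 and RAB36 one of -0.81, and all 3 were called. RAB6C and RAB6D, which share 36% of their windows with each other, were not called. RAB6C, at 3 to 40 counts a library, was called higher without normoxia replicate 1 (1.74, edgeR adjusted p = 0.0301), beside 0.93 here.

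Among the 9 early endosome and phagosome Rabs 4 rose and 4 fell, beside 39.2% of all genes higher and 38.5% lower, and RAB31 was not called. RAB17, an epithelial Rab, rose by 0.50, while RAB21, which carries integrins, and RAB22A had log2-fold changes of -0.71 and -0.27. The sums were 185 ± 1.15 FPKM under normoxia and 179.7 ± 2.58 FPKM under hypoxia. Of the 6 recycling Rabs, RAB4A alone rose, by 0.30 (lost without normoxia replicate 1, edgeR adjusted p = 0.0562), and RAB11A, RAB14 and RAB35 fell. RAB11A, the main Rab of slow recycling, changed by only -0.16 ± 0.05 and RAB14 by -0.22 ± 0.05, and the call of RAB11A was lost when every library needed 10 counts (edgeR adjusted p = 0.138). The recycling sums were 223 ± 3.04 FPKM under normoxia and 211 ± 3.79 FPKM under hypoxia, without overlap.

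Of the 12 tested Rabs assigned to the exocytic group, 5 rose, 3 fell and 4 were not called, beside 39.2% of all genes higher and 38.5% lower. The summed FPKM of the exocytic Rabs, 186 ± 2.06 under normoxia and 189 ± 2.28 under hypoxia, overlapped. RAB27A, which docks secretory organelles at the plasma membrane, was not called (log2-fold change -0.14, edgeR adjusted p = 0.137), although it was called lower without hypoxia replicate 3 (-0.22, edgeR adjusted p = 0.043). Its scarcer paralog RAB27B rose by 0.48 with overlapping libraries (edgeR adjusted p = 0.041). The call of RAB27B was lost in 4 of 11 other fits of the counts, each without 1 library (adjusted p from 0.114 to 0.177). Limma on log2(FPKM + 1) without a filter, which kept all libraries, did not call RAB27B either (0.14, adjusted p = 0.101). RAB12, RAB15 and RAB3D were not called. RAB15 was called lower without hypoxia replicate 1 (-0.37, edgeR adjusted p = 0.00944) and without a filter on low counts (-0.26, adjusted p = 0.0342), beside -0.22 here, and RAB3D without normoxia replicate 3 (-0.15, adjusted p = 0.0322). Of the 5 late endosome and lysosome-related Rabs, RAB7A and RAB38 fell, RAB29 rose, and RAB9A and RAB32 were not called, with sums of 258 ± 4.28 FPKM under normoxia and 237 ± 5.80 FPKM under hypoxia.

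Among the 4 ciliary Rabs, RABL2A and RABL2B rose and RAB23, a regulator of Hedgehog signalling, fell by 0.47 on the log2 scale, while RAB28 was not called (log2-fold change -0.29) except without normoxia replicate 3 (-0.36, edgeR adjusted p = 0.0286) and by limma on filtered log2 FPKM (adjusted p = 0.034 with 1 added). RAB23 shares 58.1% of its windows with BAG2, whose own log2-fold change was -2.14. The SOCS box and atypical Rabs stood at 14.3 ± 1.26 FPKM under normoxia and 39.7 ± 3.00 FPKM under hypoxia in sum, or 1.13% and 3.22% of Rab FPKM, most of it RAB40C. RAB42 rose by 0.54, with 1 normoxia library above the lowest hypoxia library. This call was lost in 3 of 11 other fits of the counts, each without 1 library (edgeR adjusted p from 0.0654 to 0.142). Limma on log2(FPKM + 1) without a filter did not call RAB42 either, but limma with a filter did. RAB40B and RABL3 were not called.

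Among 12 subfamilies with at least 2 tested members, 5 held members called in opposite directions, which made 9 of 27 pairs, or 33.3%. Of all pairs that the 14255 tested genes can form, 30.3% are called in opposite directions, so the share among paralogs lay near the background. Without normoxia replicate 2, and without a filter on low counts, 3 subfamilies remained (RAB3, RAB5 and RAB8), with 6 and 7 pairs, and without hypoxia replicate 1 there were 4 subfamilies and 5 pairs. These pairs are picked out by their calls, so that the ratios given next are descriptions. In the RAB8 group, RAB8A fell while RAB8B and RAB13 rose. RAB8B, the lower-level paralog in these cells, had 1.78, 1.61 and 1.84 FPKM under normoxia and 3.35, 3.82 and 3.39 FPKM under hypoxia, a log2-fold change of 0.97 ± 0.08. The log2 ratio of RAB8A to RAB8B was 4.95 ± 0.16 under normoxia and 2.82 ± 0.13 under hypoxia (SD, n = 3). RAB8A had 55.2, 55.4 and 50.7 FPKM under normoxia and 25.4, 24.4 and 24.9 FPKM under hypoxia, so that it passed from above RAB13 to below it, with log2 ratios to RAB13 of 0.30 ± 0.16 and -1.56 ± 0.08. RAB10, which brings the glucose transporter GLUT4 to the surface in fat cells, differed little (log2-fold change -0.15 ± 0.05). It had 37.5, 37.6 and 37.9 FPKM against 33.6, 35.9 and 35.8 FPKM. Its call was lost in 2 of 11 other fits of the counts (edgeR adjusted p of 0.0551 and 0.2). Limma on filtered log2(FPKM + 1) and log2(FPKM + 0.1) did not call RAB10 either, but limma without a filter did.

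RAB5 proteins govern fusion of early endosomes. RAB5C, the most abundant of them, had 113, 119 and 112 FPKM under normoxia and 85.2, 84.3 and 84.4 FPKM under hypoxia, a log2-fold change of -0.48 ± 0.05. RAB5B had 5.25, 4.43 and 6.02 FPKM against 8.58, 8.62 and 8.87 FPKM, a log2-fold change of 0.69 ± 0.08. RAB5A had 56.7, 55.8 and 57.3 CPM against 49.8, 51.8 and 53.4 CPM, with an edgeR adjusted p of 0.0481. This call was lost in 8 of 11 other fits of the counts. Limma on log2 FPKM, with or without a filter, did not call RAB5A either. The log2 ratio of RAB5B to RAB5C rose from -4.46 ± 0.27 to -3.28 ± 0.03, yet RAB5C stayed by far the more abundant.

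RAB3 proteins regulate secretory vesicles. RAB3A, best known from nerve endings, had 2.39, 2.37 and 1.81 FPKM under normoxia and 4.01, 3.78 and 3.75 FPKM under hypoxia (log2-fold change 0.76 ± 0.17). RAB3B had 10.0, 9.62 and 9.01 FPKM against 6.29, 5.48 and 5.23 FPKM (-0.80 ± 0.07), and RAB3D was not called. The log2 ratio of RAB3A to RAB3B moved from -2.14 ± 0.16 to -0.56 ± 0.09. RAB3A shares 6.26% of its windows with MPV17L2, whose log2-fold change was -1.58.

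RAB2A and RAB2B, which act between the endoplasmic reticulum and the Golgi, parted by less. RAB2A had 32.4, 32.0 and 31.9 FPKM under normoxia and 25.7, 25.7 and 26.9 FPKM under hypoxia (-0.35 ± 0.05), and RAB2B had 3.71, 2.85 and 3.28 FPKM against 4.38, 4.12 and 4.01 FPKM (0.30 ± 0.11). Of the Rabs of lysosome-related organelles, RAB38 had 6.75, 6.89 and 7.23 FPKM against 5.69, 4.88 and 5.90 FPKM (-0.39 ± 0.09). RAB29 had 6.90, 6.33 and 6.78 FPKM against 7.48, 8.22 and 8.24 FPKM (0.21 ± 0.08). The edgeR adjusted p was 0.0221 for RAB2B and 0.0174 for RAB29, and these calls were lost in 3 and 4 of 11 other fits, with adjusted p up to 0.117 and 0.0851. None of these 4 genes overlapped between the conditions.

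**Figure D4:**
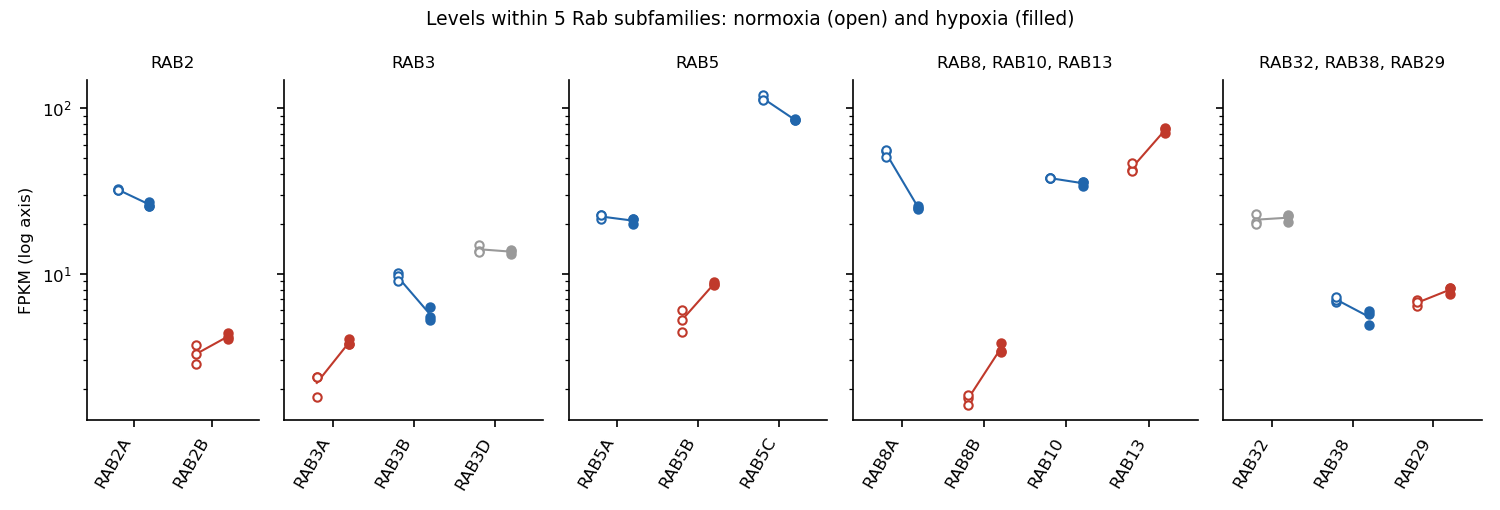
FPKM (log axis) under normoxia (open points) and hypoxia (filled points) in each library for 5 Rab subfamilies with members called in opposite directions; lines join the means. Red genes were called higher, blue lower and grey not called, and RAB8A drops from above RAB13 to below it.

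The 7 Rabs that failed the filter were RAB7B, RAB9B, RAB33A, RAB37, RAB40A, RAB40AL and RAB44, with at most 24 counts in any library. RAB37 had 7, 4 and 4 counts under hypoxia and 0 in every normoxia library, and RAB44 had 11, 7 and 24 counts against 2, 1 and 5. No fold change is given for these genes.

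The genes that act on Rabs were divided by role into 5 lists holding 129 tested genes, of which 54 rose, 46 fell and 29 were not called. The called genes were 77.5% of them (77.8% of all genes), with 41.9% higher (39.2% of all genes) and 35.7% lower (38.5% of all genes), so the lists as a whole lay near the background. Of the 7 genes for prenylation, escort and extraction 1 rose (14.3%) and 4 fell (57.1%), with a median log2-fold change of -0.32. Both subunits of Rab geranylgeranyl transferase fell. RABGGTB had 86.8, 93.2 and 75.8 CPM under normoxia and 43.6, 37.8 and 39.0 CPM under hypoxia (log2-fold change -1.09 ± 0.08), and RABGGTA had one of -0.77 ± 0.08. RABIF fell by 0.51, GDI2 had a log2-fold change of -0.32, and RABAC1, a Golgi protein that binds prenylated Rabs, rose by 0.89. The escort protein CHM was not called (edgeR adjusted p = 0.966).

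Of 36 GEFs tested 15 rose (41.7%) and 13 fell (36.1%), beside 39.2% of all genes higher and 38.5% lower. The median log2-fold change was -0.01. No list's counts were tested against these shares. MON1A and CCZ1, which together form the GEF of RAB7A, had log2-fold changes of -1.77 ± 0.13 and -0.72 ± 0.06, although CCZ1 has a near-identical copy, CCZ1B, with which reads could be shared. MON1B, the other MON1 subunit, stood at 9.80 FPKM under normoxia beside 6.77 FPKM for MON1A and was not called (-0.11, edgeR adjusted p = 0.162). RAB3IL1, a GEF of RAB8 proteins, had -1.15 ± 0.16. The largest increases were those of DENND6B (2.08 ± 0.08), RIC1 (1.32 ± 0.06), a subunit of the GEF of RAB6A, and DENND2A (1.27 ± 0.18). The TRAPP complexes are GEFs of RAB1 and RAB11 proteins. Of their 14 subunits 3 were higher (21.4%) and 8 lower (57.1%), beside the same 39.2% and 38.5%, with a median of -0.26. TRAPPC4 had 50.1, 48.2 and 44.5 CPM under normoxia and 20.3, 16.7 and 17.2 CPM under hypoxia (log2-fold change -1.40 ± 0.08), while TRAPPC6A rose by 2.06 ± 0.15. TRAPPC13 and TRAPPC3 fell by 0.77 and 0.63 on the log2 scale, and TRAPPC5 and TRAPPC9 rose by 0.36 and 0.23.

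Of 31 GAPs tested 17 rose (54.8%) and 7 fell (22.6%), beside 39.2% of all genes higher and 38.5% lower. Their median was 0.21, and the difference in shares was not tested. TBC1D8B (1.66 ± 0.15), SGSM2 (1.41 ± 0.07) and TBC1D9 (1.23 ± 0.09) rose most. TBC1D30, a GAP of RAB8A, had 21.3, 24.9 and 18.2 CPM under normoxia and 3.57, 2.90 and 3.85 CPM under hypoxia, a log2-fold change of -2.65 ± 0.14. TBC1D16 and TBC1D13 fell by 0.62 and 0.56 on the log2 scale. RAB8A, the GEF RAB3IL1 and this GAP were thus lower, but RAB3IP, another GEF of RAB8 proteins, rose by 0.24. RAB3IP was the more abundant GEF, at 2.19 FPKM under normoxia and 2.67 under hypoxia beside 1.72 and 0.80 for RAB3IL1.

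Of 41 effectors tested 18 rose (43.9%) and 14 fell (34.1%), beside 39.2% of all genes higher and 38.5% lower. Their median was 0.17. SYTL2 (2.30 ± 0.17) and SYTL1 (1.58 ± 0.13), synaptotagmin-like proteins that bind RAB27, rose, while EXPH5, another RAB27 effector, had a log2-fold change of -1.33 ± 0.10. MICALL2, a partner of RAB13 at cell junctions, rose by 1.26 ± 0.08, in the same direction as RAB13. The dynein adaptors BICD1 and BICD2, which bind RAB6, had log2-fold changes of -0.99 and -0.82, opposite to RAB6A. Among 5 genes of PD-L1 recycling, CMTM6, which protects PD-L1 in recycling endosomes, rose by 0.24 and HIP1R by 0.40. In the other direction, CD274 (PD-L1) had a log2-fold change of -0.91 ± 0.10, CMTM4 one of -0.15 and TRAPPC4 the one given above. By RT-qPCR the study reported more PD-L1 mRNA under hypoxia in SCC9, SIHa and KYSE510, whereas the labels here give SCC25. The reason for the opposite direction was not tested.

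**Figure D5:**
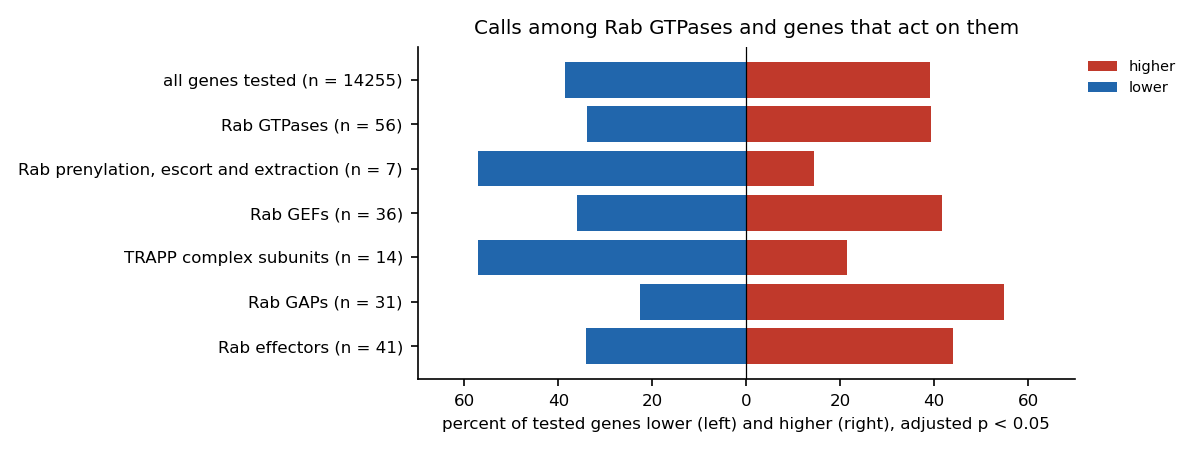
Percent of tested genes called lower (left, blue) and higher (right, red) under hypoxia for all genes, the Rab GTPases and 5 lists of genes that act on them, with the number tested in brackets. The Rab bars of 33.9% and 39.3% lie near those of all genes, 38.5% and 39.2%, and the lists range from 22.6% to 57.1% lower and from 14.3% to 54.8% higher.

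Markers of other cell types were low but moved with the condition. The 5 fibroblast markers summed to 3.15 to 5.65 CPM under normoxia and 17.1 to 22.0 CPM under hypoxia, nearly all of it COL1A1, a collagen, whereas COL1A2, DCN and LUM stayed below 1 CPM. The 4 leukocyte markers found in the table summed to 0.839 to 1.69 CPM and 5.89 to 6.52 CPM, most of it CD14, while PTPRC and CD3E, which define leukocytes and T cells, had at most 2 counts in any library. The 2 melanocyte markers summed to 0.0699 to 0.372 CPM and 1.17 to 2.06 CPM, mainly PMEL. The neuroendocrine marker SYP, a protein of synaptic vesicles, stayed at or below 0.339 CPM. In these 4 lists COL1A1, CD14 and PMEL were called higher, PDGFRB was not called and the rest were not tested. The 7 squamous markers summed to 576 to 639 CPM under normoxia and 794 to 813 CPM under hypoxia, with CDH1, the most abundant, called higher together with KRT17 and DSG3, while KRT5 and SFN were called lower. Without CDH1 the squamous sum was lower under hypoxia, at 312 to 340.3 CPM beside 393 to 439 CPM under normoxia. Their part in the Rab changes was not tested.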

How the data were processed

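The authors deposited counts, the number of reads counted on each gene as whole numbers without normalization, and FPKM of the same genes. In 21775 of 21776 genes, all 63 Rabs among them, the FPKM followed from the counts, a gene length and the library total (relative tolerance 0.0001). The submitters' processing notes name the mouse builds GRCm38 and mm10, although symbols and Entrez numbers are human. The aligner, counter, annotation and use of strand are not given in the sources used here.

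All genes were tested together with edgeR 4.0.16 in R 4.3.3 (quasi-likelihood test, TMM, filterByExpr, Benjamini-Hochberg adjustment, threshold 0.05), with condition as the only term. The SE of a log2-fold change was derived from edgeR's test, as the size of the change divided by the square root of the F statistic. CPM used TMM-scaled totals. At these totals a gene at 3 counts or below throughout a condition has no measurable level there. The biological coefficient of variation was 0.0685. Chi-square per gene between replicates was 5.11 to 11.5, beyond sampling noise, and highest (10.5 and 11.5) for the pairs with normoxia replicate 3. Every library was kept as 1 replicate. Tested on simulated counts, edgeR found 193 of 200 genes changed by 1 on the log2 scale among 14212, with 5.85% of calls false. Only those 200 genes differed there, whereas in the data 77.8% of genes tested were called and 30.4% were called beyond 1. The simulation therefore does not give the share of false calls in the data, nor for smaller changes.

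The Rab genes and the lists were chosen with earlier results of these data known. Library values were given for Rabs called beyond 1 in size, the 8 most abundant, and the called members of subfamilies called in opposite directions. They were also given for RABL2B, RAB37 and RAB44. From each list the 3 largest called increases and decreases among genes averaging 1 or more on the log2 CPM scale, and all hypoxia response and PD-L1 recycling genes, were named. Other Rabs, and other listed genes, were named to account for their group after their values had been seen. Windows of 75 bases were compared between GENCODE v29 transcripts of different genes. Promoters came from RefSeq. A comparison of Rab protein sequences was not made here. Alternatives were DESeq2 1.42.0, its size factors, other filters, a replicate block, each library left out, and limma 3.58.1 on log2 FPKM.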

Additional observations from a re-analysis of the deposited data

How the results depend on the processing

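In 11 other fits of the counts, 30 of the 41 called Rabs were called in every one, among them 9 of the 10 beyond a log2-fold change of 1. RAB6B, the other, was not tested when every library needed 10 counts. The number upregulated ranged from 18 to 23 with each library left out (18 without normoxia replicate 2), that downregulated from 18 to 21, and that beyond 1 from 10 to 13. With 10 counts in every library, 23 Rabs were higher and 15 lower. The calls of RAB10, RAB11A, RAB1B, RAB27B, RAB29, RAB2B, RAB42, RAB43, RAB4A and RAB5A were lost in at least 1 of these 11 fits. RAB5A was lost in 8, with adjusted p from 0.0521 to 0.397. Limma on log2 FPKM, which is not among these 11, lost the calls of RAB10 and RAB5A with a filter. Without a filter it lost those of RAB27B, RAB42 and RAB5A. RAB11B, RAB15, RAB25, RAB27A, RAB28, RAB3D and RAB6C, not called in the report, were called in at least 1 alternative, RAB25 in 4 of them. The cause was not tested.

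Replicate numbers did not pair the libraries (correlations of deviations of 0.0175, -0.069 and 0.00122 between equal numbers). With the replicate block, 22 Rabs were higher, 18 lower and 10 beyond 1, and RAB5A alone lost its call (-0.13, adjusted p = 0.0808).

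Only Rabs that were not called changed sign. With 10 counts in every library, which moved the median of all genes by 0.08, RAB12 stood at 0.005, RAB32 at 0.071 and RABL3 at 0.058. With limma on log2(FPKM + 1), log2(FPKM + 0.1) and log2(FPKM + 1) without a filter, RAB32 stood at 0.040, 0.042 and 0.040 and RABL3 at 0.023, 0.028 and 0.023. With each library left out, RAB32 ranged from -0.065 to 0.029 and RAB19 from -0.343 to 0.103. The mean summed Rab FPKM was lower under hypoxia in every alternative run. The log2 ratio ranged from -0.07 with TMM scaling to -0.0018 without RAB7A, where the libraries of the conditions overlapped.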
